A study of Homo sapiens with 6 samples.

Results

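Peaks of HDAC1, H4K12la and ENO1 were described at 10 protein-coding genes, grouped as immediate early genes and MYC. Many of them are switched on within minutes of a stimulus. They were chosen by name: JUN, JUNB and JUND; FOS and FOSB; EGR1 and EGR2; IER2; ATF3; and MYC. All 10 were found among 19866 protein-coding genes of the RefSeq table (GRCh38 patch 14). The libraries came from HepG2, an established line from a human hepatocellular carcinoma, by CUT&Tag, in which an antibody guides a transposase that cuts and tags the DNA beside its target. One pair of libraries was made with an antibody to HDAC1, a histone deacetylase, one with an antibody to H4K12la, histone H4 lactylated at lysine 12, and one with an antibody to ENO1, the glycolytic enzyme enolase 1. The labels give no treatment, genotype or time for any of the 6 libraries, do not say that the 2 replicates of a target came from separate cultures, and name no control library. The study asks what lactylation controlled by ENO1 together with HDAC1 does to transcription.

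Immediate early genes are transcribed without new protein synthesis, because the factors that start them, such as serum response factor and CREB, are already bound or are activated by phosphorylation. JUN, JUNB and JUND encode partners of FOS and FOSB in the AP-1 dimer, EGR1 and EGR2 encode zinc finger transcription factors, ATF3 encodes a stress-induced bZIP factor that often represses, and IER2 encodes a small nuclear protein. MYC encodes a basic helix-loop-helix factor that pairs with MAX. Histone deacetylases are known at active as well as silent genes, and HDAC1 is also known to remove lactyl groups from histones in biochemical assays. A shorter protein translated from the ENO1 transcript, MBP-1, is known to bind the MYC promoter.

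Only peak lists were used. A list holds the places where reads exceeded the peak caller's background at a q value of 0.01, so the lack of a peak does not show the lack of signal, and depth is unknown. On the numbered chromosomes, X and Y, the lists held 5727 and 4567 peaks for HDAC1, 5459 and 7568 for H4K12la, and 1592 and 1189 for ENO1, in replicates 1 and 2. Fold enrichment is the authors' value of a peak over background within its own library, and is set only beside other peaks of the same list. A gene was counted for a target when both replicates had a peak within 1 kb of either annotated end of the gene. With no common scale and 2 libraries a target, no test between targets was made, and counts are set beside the same share of all protein-coding genes.

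HDAC1 lay within 1 kb of a gene end at 3 of the 10 genes in both replicates. These ends were the starts of JUN and EGR1 and the left annotated end of MYC. H4K12la and ENO1 lay at the ends of none of the 10 in both. In HDAC1 replicates 1 and 2 taken singly the count was also 3, against 14.8% and 10.1% of all genes. Among all 19866 genes, 8.18% carried HDAC1 at a gene end in both replicates, 10.5% carried H4K12la and 0.0654% carried ENO1. HDAC1 without H4K12la described the same 3 genes, against 5.01% of all genes. The HDAC1 share of the 10 genes was above that of all genes, which describes 3 genes and was not tested. The 10 genes were chosen with earlier results of these data known, which limits this comparison. H4K12la without HDAC1 described 0 of the 10, against 7.28% of all genes. One gene is 10% of this list, so 0 of 10 is near the background for H4K12la and for ENO1, and the lack of H4K12la calls is not a result about these genes. Of the 10 genes, 9 are 10 kb long or shorter. Among the 5582 protein-coding genes of that length, 5.97% carried HDAC1 and 4.59% carried H4K12la, and an effect of gene length was not tested.

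In all, 17 peaks of the 6 libraries lay at or within 50 kb of the 10 genes. HDAC1 accounted for 12 of them, 6 in each replicate, and 10 of the 12 overlapped a peak of the other HDAC1 replicate. H4K12la accounted for 5, of which 1 was in replicate 1 and 4 were in replicate 2, and none of the 5 overlapped a peak of the other H4K12la replicate. Over the whole lists, 54.1% and 67.9% of HDAC1 peaks in replicates 1 and 2 were shared in this way, and 65.5% and 47.3% of H4K12la peaks were. ENO1 had no peak near the 10 genes. Within 50 kb, a region shared by both replicates was found at 4 of the 10 genes for HDAC1, 0 for H4K12la and 0 for ENO1, against 24.4%, 26.9% and 1.47% of all protein-coding genes.

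**Figure D1:**
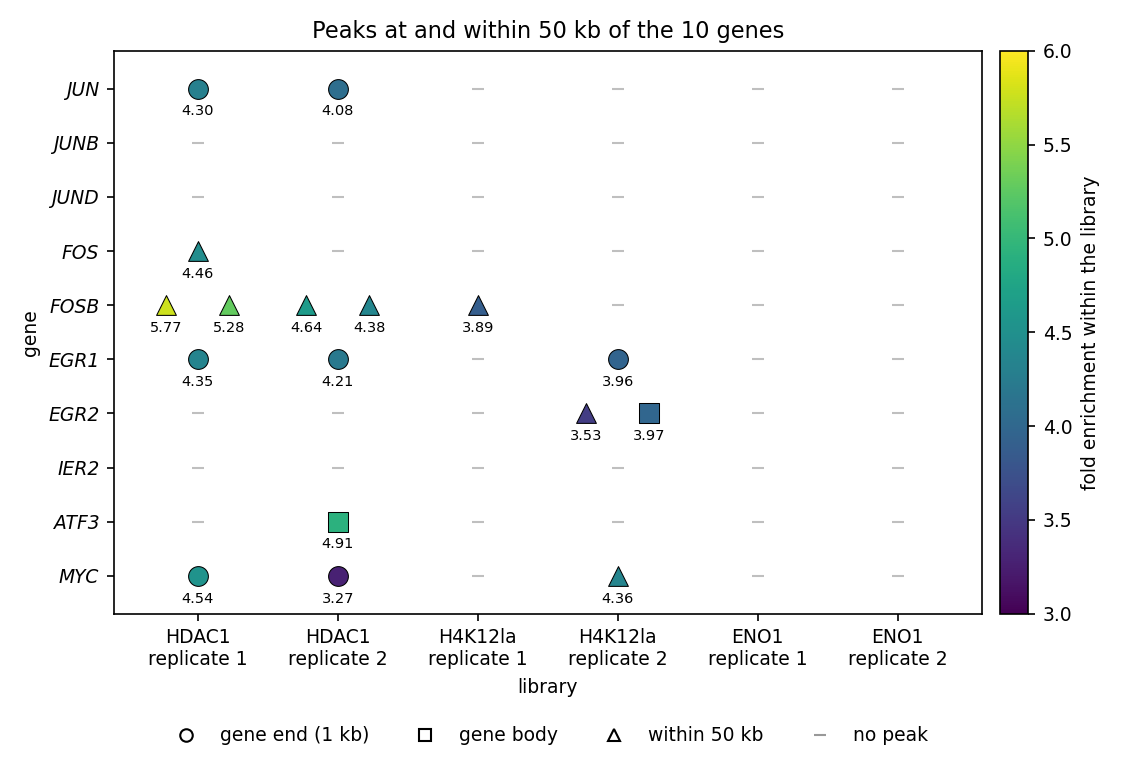
Each row is a gene and each column a library, HDAC1 first. A symbol is a peak, its shape gives the place (circle, within 1 kb of a gene end; square, in the gene body; triangle, elsewhere within 50 kb), and its colour and number give the fold enrichment within that library. Circles in both HDAC1 columns stand at JUN, EGR1 and MYC, and both ENO1 columns are empty.

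The upstream sequences of JUN and EGR1 are shown because HDAC1 peaks of both replicates covered the whole of the first and the outer 156 of 250 bases of the second, and that of FOS because no peak of any library reached it. Each is the 250 bases before the RefSeq start on GRCh38.p14, 5′ to 3′ on the gene's own strand. Capitals mark matches, on either strand, to the CArG box bound by serum response factor, to the AP-1 site TGANTCA, to the CRE-type site TGACNTCA and to the CRE half-site TGACG, which can overlap one another. A match describes the letters only. JUN is on chr1:58784048-58784297 (minus strand), EGR1 on chr5:138465229-138465478 (plus strand) and FOS on chr14:75278578-75278827 (plus strand).
JUN: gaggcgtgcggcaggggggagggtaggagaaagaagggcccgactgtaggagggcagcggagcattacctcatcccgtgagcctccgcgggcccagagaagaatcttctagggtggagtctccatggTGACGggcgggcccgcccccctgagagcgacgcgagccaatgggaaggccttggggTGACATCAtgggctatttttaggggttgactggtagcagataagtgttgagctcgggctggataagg
EGR1: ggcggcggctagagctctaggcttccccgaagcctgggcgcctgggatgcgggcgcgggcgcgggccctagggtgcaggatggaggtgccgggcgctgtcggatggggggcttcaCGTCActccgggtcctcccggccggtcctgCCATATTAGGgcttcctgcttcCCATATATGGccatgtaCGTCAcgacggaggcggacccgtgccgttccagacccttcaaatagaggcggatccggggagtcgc
FOS: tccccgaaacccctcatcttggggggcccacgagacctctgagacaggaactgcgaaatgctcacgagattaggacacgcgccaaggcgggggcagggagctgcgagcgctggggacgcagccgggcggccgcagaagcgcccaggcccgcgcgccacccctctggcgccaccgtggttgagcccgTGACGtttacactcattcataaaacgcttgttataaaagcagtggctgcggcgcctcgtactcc

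Over all 34943 upstream windows of this length in the RefSeq table, 1.16% held a CArG box, 6.59% an AP-1 site, 6.86% a CRE-type site and 21.2% a CRE half-site. The 9 genes with a listed start had 12 such windows, with a GC content of 44.8% to 78.0%, against a median of 58.0% over all windows. A CArG box was found at EGR1 and at the most internal of the 3 listed EGR2 starts, and a CRE-type site at JUN, JUND and the outer listed start of ATF3. The CRE half-site was found in 8 of the 12 windows, those of JUN, JUNB, JUND, FOS, FOSB, EGR1 and IER2 and the most internal one of EGR2. No AP-1 site with the letters TGANTCA was found in any of the 12. Only the upstream bases of these windows were searched, so a site further out, at FOS or any other gene, would not be seen.

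At JUN, the AP-1 subunit gene (chromosome 1, 58780791 to 58784047), the HDAC1 peaks ran from 58783984 to 58784363 in replicate 1 and from 58783984 to 58784313 in replicate 2, and both covered all 250 bases printed above. The fold was 4.30 and 4.08 in HDAC1 replicates 1 and 2, and the -log10 q was 10.9 and 8.97. Both peaks began at the same base and their summits were 114 bp apart, at 70 bp and 184 bp upstream of the start. The CRE-type match spans 67 to 60 bp before the start. The summit of replicate 1 lay 3 bp upstream of this match. That of replicate 2, at 184 bp before the start, lay further out, so the short distance belongs to replicate 1 alone. A CRE-type site in the JUN promoter is known to let AP-1 act on its own gene, and whether HDAC1 lies at it was not tested. No H4K12la peak lay within 50 kb, and the nearest, 119 kb away, was present in both H4K12la replicates. The nearest ENO1 peaks were 15357 kb and 6861 kb away in replicates 1 and 2. No other protein-coding gene lies within 50 kb of JUN.

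EGR1 (chromosome 5, 138465479 to 138469303), which encodes an early growth response factor, carried the widest gene-end HDAC1 peaks of the 10 genes. They were 1004 bp wide in replicate 1 (138464381 to 138465384) and 1202 bp in replicate 2 (138464183 to 138465384), and 95.2% and 99.6% of gene-end peaks in those lists were narrower. The fold was 4.35 and 4.21 in HDAC1 replicates 1 and 2, with a -log10 q of 11.4 and 8.84. Both peaks ended at the same base, 95 bp before the start, and their summits lay 852 bp and 976 bp upstream of it. That shared last base is the first after the upstream CArG box (105 to 96 bp before the start). By these edges, this box lay inside both HDAC1 peaks and the other CArG box (83 to 74 bp before the start) outside both. The split rests on 1 base of an edge set by the peak caller, whose settings are not known. It does not show that HDAC1 tells the 2 boxes apart.

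EGR1 was also the only one of the 10 genes with an H4K12la peak within 1 kb of an outer annotated end. An H4K12la peak at EGR2 lay 407 to 83 bp before an internal listed start, and was counted as a body peak. The EGR1 peak was found in H4K12la replicate 2 (138464243 to 138464626, 3.96-fold, -log10 q of 5.74). It was not found in replicate 1, whose nearest peak was 127 kb away. In replicate 2 alone, 19.5% of all genes had a gene-end peak of H4K12la, so 1 of 10 is not above the background. All 384 bp of this H4K12la peak lay inside the HDAC1 peak of replicate 2 and 246 bp inside that of replicate 1. Its summit was 1202 bp upstream of the start, 226 bp and 350 bp from the HDAC1 summits of replicates 2 and 1. The H4K12la peak thus sat at the far side of the HDAC1 peaks from the gene.

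MYC (chromosome 8, 127735434 to 127742951) differed from JUN and EGR1 in how unlike its HDAC1 peaks ranked by q within the lists of replicates 1 and 2. MYC has no listed start, so positions are counted from its annotated left end and are not strictly comparable with JUN and EGR1. MYC is read toward higher coordinates, and its HDAC1 summits lay 462 bp and 345 bp past that end in replicates 1 and 2. The peaks ran from 127735240 to 127736152 in replicate 1 and from 127735604 to 127736230 in replicate 2. That of replicate 2 began 170 bp after the annotated left end. The fold was 4.54 in HDAC1 replicate 1 and 3.27 in replicate 2, with a -log10 q of 11.1 and 3.49. In replicate 1 the peak ranked 1699th of 5727 by q, with 29.6% of that list above it. In replicate 2 the peak ranked 4195th of 4567 by q, so 91.8% of that list was ranked above it. With only peaks at a -log10 q of 5 or more, MYC lost its HDAC1 call while JUN and EGR1 did not, and the count of genes was then 2 of 10, against 6.31% of all genes.

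ENO1 had no peak near MYC in either replicate, and its nearest peaks lay 6534 kb and 10463 kb away in replicates 1 and 2. Only 3.94% and 2.14% of all genes had an ENO1 peak within 50 kb in these replicates, so its lack is not a result about MYC. The lists do not show whether the antibody used recognises MBP-1. H4K12la had no peak at the MYC gene in either replicate. In replicate 2 it had one 47.5 kb upstream (127687588 to 127687955, 4.36-fold, -log10 q of 3.80), which overlapped no peak of any other library. In H4K12la replicate 1 the nearest peak was 111 kb away.

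**Figure D2:**
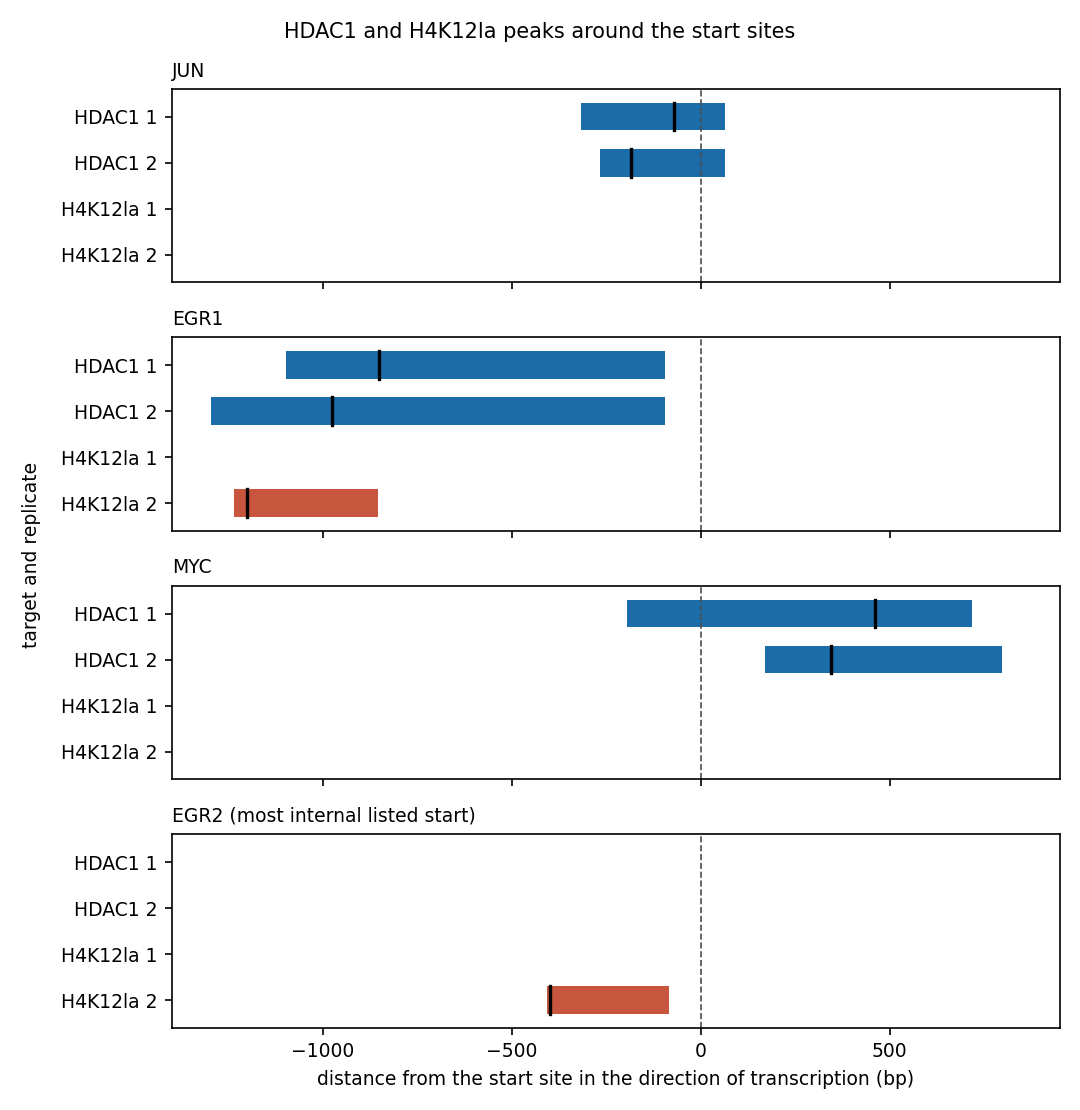
Bars are peaks and black ticks their summits, drawn by distance in bp from the start (dashed line), with transcription to the right, for HDAC1 replicates 1 and 2 above H4K12la replicates 1 and 2. HDAC1 covers the start at JUN, ends 95 bp before it at EGR1 and lies mostly past the dashed line at MYC. For MYC that line is the annotated left end, as no start is listed. The H4K12la bars at EGR1 and EGR2 come from replicate 2 alone.

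Across all protein-coding genes with a listed start, the HDAC1 summits within 1 kb of a start had a median position of 53 bp upstream in replicate 1 (2097 peaks) and 95 bp upstream in replicate 2 (1412 peaks). The lower and upper quartiles ran from 233 bp upstream to 122 bp downstream in replicate 1, and from 234 bp upstream to 65.2 bp downstream in replicate 2. JUN lay inside this range in both replicates. EGR1 lay upstream of this range, with its summits 852 bp and 976 bp before the start in replicates 1 and 2. Of these summits, 0.620% and 0.0708% lay further upstream. As only summits within 1 kb were kept, little room was left beyond EGR1, so these small shares do not show how unusual its position is. Counted from its annotated left end, MYC lay on the other side, with 4.72% and 5.45% of the summits further downstream. The table of starts used here has no entry for MYC. Its reference point is thus unlike that of the other genes, and whether the difference in position comes from the annotation was not tested.

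By fold, none of the 3 genes stood high in its own list. At gene ends the median fold was 4.69 over 2349 HDAC1 peaks in replicate 1 and 4.73 over 1584 in replicate 2, and all 6 peaks at JUN, EGR1 and MYC were below these medians. In replicate 1, 35.7% of gene-end peaks had a lower fold than JUN, 37.5% a lower fold than EGR1 and 44.7% a lower fold than MYC. In replicate 2 the shares were 26.3% for JUN, 30.9% for EGR1 and 4.80% for MYC. By -log10 q, the same 3 peaks were in the upper part of the list of replicate 1, where 28.6% to 30.2% of all peaks ranked above them. In replicate 2, 40.2% ranked above JUN and 40.9% above EGR1.

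**Figure D3:**
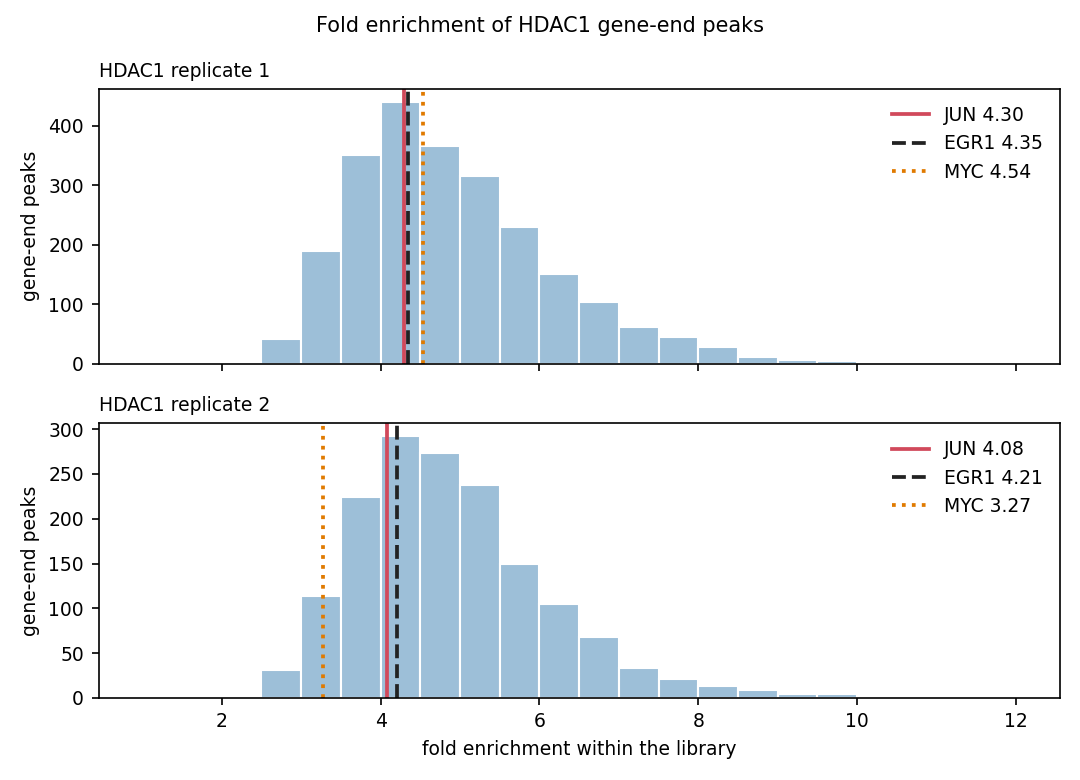
Bars count gene-end HDAC1 peaks by fold enrichment, with replicate 1 above replicate 2, and lines mark JUN, EGR1 and MYC. All 6 values lie between 3.27 and 4.54, below the medians of 4.69 and 4.73, and MYC in replicate 2 is the lowest.

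FOS and FOSB, whose proteins pair with JUN proteins, had no peak at the gene in any library. For FOS (chromosome 14, 75278828 to 75282230), HDAC1 replicate 1 had a peak beyond the far end of the gene (75293867 to 75294316, 4.46-fold, -log10 q of 7.60), with its summit 15.2 kb from the start. HDAC1 replicate 2 had no peak nearer than 209 kb, so this peak had no support from the other replicate. The nearest H4K12la peaks were 151 kb away in both replicates.

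For FOSB (chromosome 19, 45467996 to 45475179), HDAC1 had 2 regions shared by both replicates within 50 kb, each at or in another gene. One lay within ERCC1, a gene of DNA excision repair, with its summits 44.0 kb and 44.1 kb upstream of the FOSB start. Its fold was 5.77 in HDAC1 replicate 1 (45423632 to 45424457) and 4.64 in HDAC1 replicate 2 (45423626 to 45424025), and an H4K12la peak of replicate 1 (45423525 to 45424400, 3.89-fold) overlapped both. H4K12la replicate 2 had no peak there and none within 50 kb of FOSB. The other region lay within 1 kb of an end of VASP, which encodes a regulator of actin filaments, at 5.28-fold in HDAC1 replicate 1 (45506347 to 45507362) and 4.38-fold in replicate 2 (45506348 to 45507010), with no H4K12la peak over it. These were the highest HDAC1 values of replicate 1 in the surroundings of the 10 genes, and they were 43.5 kb and 31.2 kb from FOSB.

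JUNB and JUND, which encode the other AP-1 subunits of the JUN family, and IER2 had no peak of any library within 50 kb. This held for 34.9% of all protein-coding genes, so 3 of 10 is near the background. All 3 genes lie on chromosome 19 (JUNB, 12791486 to 12793315; JUND, 18279694 to 18281622; IER2, 13150411 to 13154911) with 8, 4 and 4 protein-coding neighbours within 50 kb. The nearest HDAC1 peaks were 54.0 kb and 54.2 kb from JUNB in replicates 1 and 2, at an end of GET3, a neighbour whose product delivers proteins to the endoplasmic reticulum. They were 92.4 kb and 92.5 kb from JUND, and 212 kb and 96.2 kb from IER2. For H4K12la the nearest peak in either replicate was 54.0 kb from JUNB, 258 kb from JUND and 413 kb from IER2. JUND had the nearest ENO1 peak of the 10 genes, 160 kb away in replicate 1, while in ENO1 replicate 2 the nearest lay 6648 kb from it.

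EGR2 (chromosome 10, 62811996 to 62819167), which encodes a relative of EGR1 best known from myelinating Schwann cells, had peaks of H4K12la replicate 2 alone. One lay in the gene body (62816449 to 62816773, 3.97-fold, -log10 q of 5.53), its summit 399 bp upstream of the most internal listed start. It covered 168 of the 250 bases before that start. Its edge, set by the peak caller, fell short of the CArG box found 71 to 62 bp before the same start. In H4K12la replicate 2, 8.94% of all genes had a body peak outside the end windows, and in both replicates 4.61% did, against 1 and 0 of the 10 genes. These shares cover all body peaks, not only those beside an internal start. The other peak lay in ADO, a gene for a thiol dioxygenase (62805282 to 62805949, 3.53-fold, -log10 q of 3.33). HDAC1 had no peak nearer to EGR2 than 811 kb in replicate 1 and 2905 kb in replicate 2, the longest distances of HDAC1 among the 10 genes.

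ATF3 (chromosome 1, 212565407 to 212620777), the stress factor gene and at 55371 bp the longest of the 10, had 1 peak, of HDAC1 replicate 2, in its body (212608288 to 212608727, 4.91-fold, -log10 q of 8.92). Its summit lay 6477 bp upstream of the nearer of the 2 listed starts; ATF3 is known to use alternative promoters, not all of which need be listed. HDAC1 replicate 1 had no peak nearer than 79.3 kb. Body peaks outside the end windows were found at 4.11% of all genes in HDAC1 replicate 2 and at 2.76% in both HDAC1 replicates, against 1 and 0 of the 10 genes.

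Per library, H4K12la had a peak within 50 kb of 1 of the 10 genes in replicate 1 (FOSB) and of 3 in replicate 2 (EGR1, EGR2 and MYC), against 37.1% and 47.6% of all genes. No gene was in both sets. HDAC1 had one near 5 of the 10 in each replicate, with JUN, FOSB, EGR1 and MYC in both, FOS in replicate 1 only and ATF3 in replicate 2 only. The shares of all genes were 40.3% and 30.9% in HDAC1 replicates 1 and 2, so 5 of 10 is near the background in replicate 1. Within 100 kb, shared HDAC1 regions were found at 7 of the 10 genes (34.3% of all genes) and shared H4K12la regions at 0 (36.6%), the added HDAC1 genes being JUNB, JUND and ATF3. Within 25 kb the counts were 3 (18.1% of all genes) and 0 (20.6%).

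**Figure D4:**
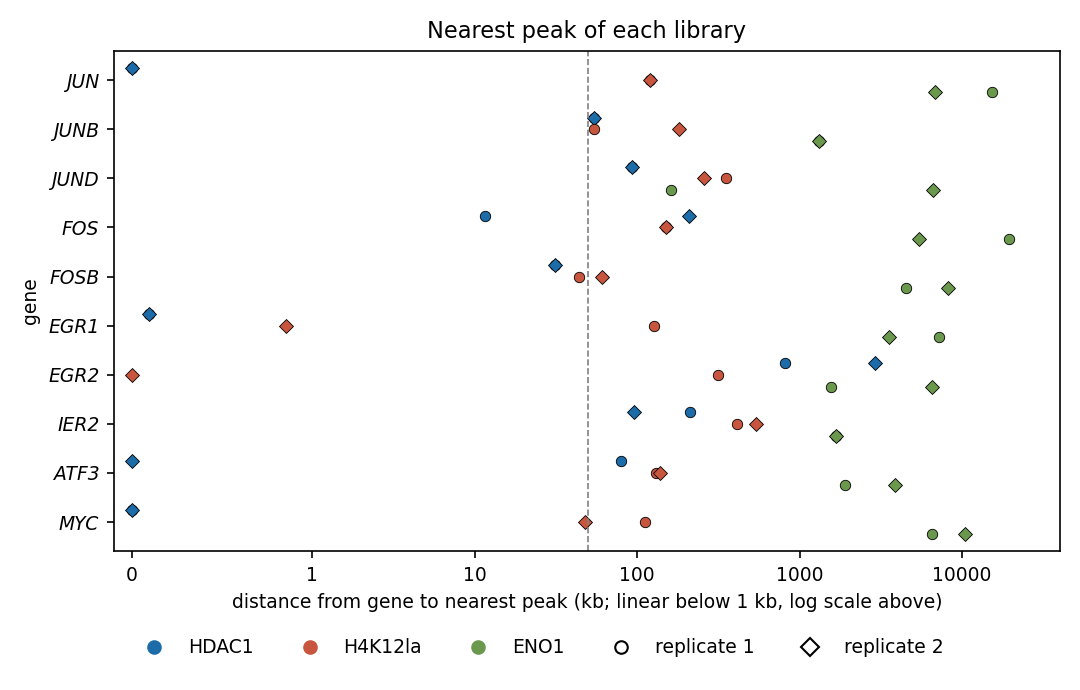
Points give the distance in kb from each gene to the nearest peak of each library (linear below 1 kb, log scale above; circle, replicate 1; diamond, replicate 2; dashed line, 50 kb; symbols of replicates at like distances lie on each other). HDAC1 points of both replicates are within 1 kb at JUN, EGR1 and MYC, H4K12la points of both replicates are within 50 kb at no gene, and ENO1 points start at 160 kb.

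Other genes of the same pathways were counted by the same rule, for which the shares of all genes were 8.18% for HDAC1 and 10.5% for H4K12la. Of 38 other immediate early genes, 4 carried HDAC1 at a gene end in both replicates (10.5%) and 2 carried H4K12la (5.26%). The HDAC1 genes were ERRFI1, a feedback inhibitor of EGF receptor signalling (8.42-fold and 7.49-fold in replicates 1 and 2), TRIB1, a pseudokinase gene (5.18-fold and 4.99-fold), DUSP6, a phosphatase gene that acts on ERK (3.92-fold and 3.55-fold), and ID1, an inhibitor of basic helix-loop-helix factors (2.75-fold and 2.44-fold). H4K12la was at ERRFI1 (6.95-fold and 6.30-fold) and at CCN2, which encodes a matrix-associated growth factor (4.22-fold and 4.72-fold). CCN2 also had an HDAC1 peak, in replicate 1 alone (4.76-fold). ERRFI1 thus carried both targets, while 28 of the 38 genes had no gene-end peak in any of the 6 libraries, as had 7 of the 10 genes described here. The share of all genes was 70.9%, so both counts are near the background.

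Among 16 AP-1 partners, 2 carried HDAC1 (12.5%), ATF2 (5.45-fold and 5.83-fold) and NFE2L2 (4.00-fold and 3.89-fold). ATF2, a stress-activated bZIP factor gene, also carried H4K12la (6.25% of the list, 4.88-fold and 4.41-fold). NFE2L2 had H4K12la in replicate 2 alone (3.30-fold). Among 13 genes of the MYC network, 2 carried HDAC1 and 2 carried H4K12la (15.4% each). MXD1, whose product competes with MYC for MAX, carried HDAC1 at 7.82-fold and 7.39-fold and H4K12la at 3.21-fold and 5.29-fold. MNT, another MAX partner, carried HDAC1 (3.97-fold and 2.74-fold), and MGA, also a MAX partner, carried H4K12la (3.54-fold and 3.15-fold). Among 20 regulators that act upstream of the immediate early genes, HDAC1 was at 1 and H4K12la at 4. CREB1, which encodes the factor that binds cyclic AMP response elements, carried HDAC1 (4.06-fold and 4.45-fold) and H4K12la (4.05-fold and 4.08-fold). The other H4K12la genes were the p38 kinase gene MAPK14 (4.21-fold and 4.32-fold), the acetyltransferase gene EP300 (3.68-fold and 4.34-fold) and CREM (4.09-fold and 3.06-fold). EP300 had HDAC1 in replicate 1 alone (4.71-fold) and CREM in replicate 2 alone (4.15-fold), while MAPK14 had it in neither. ENO1 was at 0 genes of these lists in both replicates, and no difference between lists was tested.

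**Figure D5:**
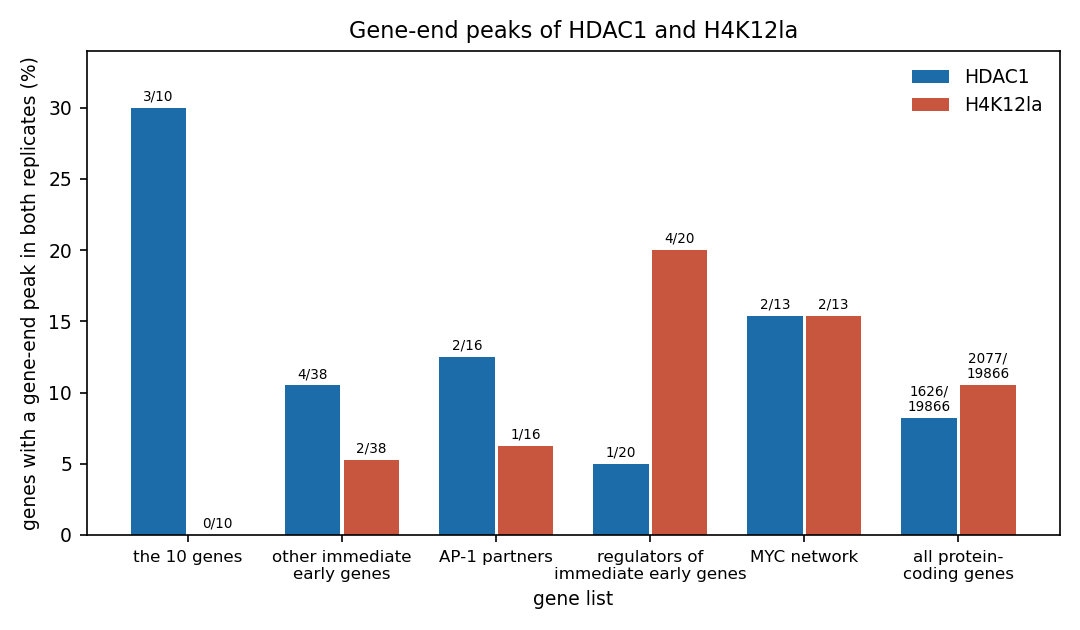
Bars give the percentage of genes with a gene-end peak in both replicates, HDAC1 left of H4K12la, for the 10 genes, 4 related lists and all protein-coding genes, with counts above. The 10 genes stand at 3 of 10 for HDAC1 and 0 of 10 for H4K12la, and the upstream regulators at 1 and 4 of 20. All protein-coding genes stand at 8.18% and 10.5%, and no difference between lists was tested.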

How the data were processed

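Peak lists from 6 CUT&Tag libraries of HepG2 cells were used, with target and replicate number taken from the sample titles. FastQC, Bowtie2, MACS2 and deepTools on hg38 are named, per the submitters' processing notes; the sources used here give no versions, settings or order and name no control library. Each library had its own deposited list, with a fold enrichment (a ratio over the caller's background), p-values and q-values written as -log10, and a whole-number score that follows the -log10 q. The lists end just above a -log10 q of 2.

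Peaks outside chromosomes 1 to 22, X and Y were dropped, and files were read with Python 3.11.15 and pandas 2.3.3. Peaks sharing at least 1 bp counted as overlapping. Genes came from RefSeq GRCh38 patch 14, without the entries on alternate or unplaced sequences. The table gives gene ends but no exons or UTRs, and starts and strands came from RefSeq promoter windows, of which 9 of the 10 genes had at least 1. A gene-body peak touched the gene but neither 1 kb end window. All members were named, with up to 4 genes per target and related list, ranked by the lower fold of both replicates, and neighbours whose ends held a peak within 50 kb. Members and lists were chosen with earlier results of these data known. Gene calls were tested on simulated data. Alternatives were narrower and wider windows, a stricter q, lists of equal length, single replicates, a larger overlap and starts only.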

Additional observations from a re-analysis of the deposited data

How the results depend on the processing

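Of 74 alternatives tried for 10 counts of genes, 68 left the count within 1.5 times of its reported value and 6 did not. With a flank of 100 kb, HDAC1 regions of both replicates lay near 7 of the 10 genes in place of 4, by construction of the wider window. The rest left out a replicate. Most of the 10 counts were 0, which a stricter setting cannot lower, so much of the agreement in the 68 was fixed in advance. With replicate 1 or replicate 2 alone, the H4K12la count was 0 and 1 at gene ends (13.5% and 19.5% of all genes). It was 0 and 1 in gene bodies (6.56% and 8.94%) and 1 and 3 within 50 kb (37.1% and 47.6%). The HDAC1 count in gene bodies was 0 and 1 (5.46% and 4.11%). On the same terms the HDAC1 counts stayed at 3 at gene ends (14.8% and 10.1% of all genes in replicates 1 and 2). They were 5 within 50 kb (40.3% and 30.9%). HDAC1 without H4K12la was at the ends of 3 and 2 genes. Its share of all genes was taken only for both replicates together (5.01%), so these 2 counts have no like background. MYC alone lost its HDAC1 gene-end call, and only with a -log10 q of 5 or more; it was not covered by the windows around listed starts, where HDAC1 stood at 2 of the 9 genes with a start, against 8.89% of 15843 genes. JUN and EGR1 kept theirs in all 8 alternatives. With lists of equal length (4567 peaks each for HDAC1 and H4K12la), the backgrounds were 7.66% and 7.72%. No paired analysis was possible because the counts need a peak in both replicates and carry no test that a replicate block could enter; counts from each replicate alone are those given above. Depth is unknown, so a missing peak limits what can be said of signal under the calling threshold.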
